A study of Homo sapiens with 9 samples.

Results

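Of 9 RNA-seq libraries of cells labelled HepG2, a human liver cancer line, 3 carried less RNA for cell division than a second set of 3. The first set, called the low-proliferation libraries here, holds control 3, SKF-96365 2 and SKF-96365 3, and the comparison libraries are control 1, control 2 and SKF-96365 1. These 6 libraries, out of 9 in the series, were chosen by how alike their measured values are and not by treatment label, so each set mixes untreated and treated cells. No p-value is given for any difference below. If the labels of control 3 and SKF-96365 1 were exchanged, the sets would be the SKF-96365 and the control label themselves. Whether they were was not tested, and every value given below inside a label or between labels takes the labels as they stand.

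The study compared control cells, SKF-96365, which the series names an inhibitor, and 2-APB, which it names an agonist, with 3 libraries per label. SKF-96365 blocks several calcium entry channels and 2-APB activates some TRPV channels at high dose. Titles of the 2-APB libraries read ABP and their deposited columns are named TRPV2. The treatment label was followed, and what that column name stands for is not given in the sources used here. The labels used here give no dose, time, vehicle or batch, and do not say whether the 3 libraries of a label are separate cultures. Proliferation is used below for transcripts alone, since cell number and cell-cycle phase were not measured.

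A cell that commits to division turns on E2F-driven genes for DNA synthesis in late G1 and S phase, then a second wave of genes for the spindle and chromosome segregation in G2 and M. Cells that leave the cycle keep E2F genes down through CDK inhibitors and the retinoblastoma family, and usually cut back ribosome and protein production. Lysosomal, matrix and stress-secretion genes are commonly raised in arrested cultures.

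The low-proliferation libraries were close to each other across the label boundary. The sets were chosen by this likeness, so the values here describe the choice and do not support it. The genes used are the 17492 that reached 10 normalized counts in 3 or more of the 9 libraries. Over them, the Pearson correlation of log2 values was 0.988 for control 3 and SKF-96365 2, 0.986 for control 3 and SKF-96365 3, and 0.989 for SKF-96365 2 and 3. Across the sets it ran from 0.957 (control 2 and control 3) to 0.972 (SKF-96365 1 and SKF-96365 2). The comparison libraries were looser, at 0.984 for control 1 and SKF-96365 1, 0.978 for control 1 and 2, and 0.973 for control 2 and SKF-96365 1. On recovered whole reads, the chi-square per degree of freedom, near 1 for counting noise alone, was 3.04 to 4.96 among the low-proliferation libraries. It was 12.4 to 31.2 among the comparison libraries and 46.6 to 62.7 between the sets. Whether the close libraries share a culture or a preparation was not tested.

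Depth was similar, with 15999490 (control 3), 16495997 (SKF-96365 2) and 17424625 (SKF-96365 3) reads in the low-proliferation libraries. The comparison libraries held 16053348 (control 1), 16846086 (control 2) and 19026545 (SKF-96365 1). Genes of the mitochondrial genome held 7.82% to 8.01% of all values in the low-proliferation libraries and 6.90% to 7.63% in the comparison libraries. The 10 highest genes took 9.69% to 9.84% and 7.39% to 8.11% in the same order. These shares moved with the sets, and their part in the differences was not tested.

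The liver label was not matched by most genes for liver products, while liver and endoderm factors were mixed. ALB, which encodes albumin, reached at most 11.8 normalized counts in any of the 9 libraries. AFP, the fetal counterpart, reached at most 8.87, the lipoprotein gene APOA1 1.75 and the hepatocyte factor gene HNF4A 2.58. Of 24 genes for proteins that hepatocytes secrete, 18 stayed under 10 normalized counts in all 9 libraries. Their summed level was 37.5 to 37.8 CPM in the low-proliferation libraries and 21.8 to 39.8 CPM in the comparison libraries. SERPINA1, the highest of them, reached 523 normalized counts in control 2. Of 21 hepatocyte and endoderm factors, which include HNF4A, only 6 stayed under 10 in all 9 libraries. These factors summed to 266 to 281 CPM and 227 to 325 CPM in the same order, and NR2F2, the highest, had a mean of 2589 over the 6 libraries. Of 10 endothelial markers the summed level was 5.76 to 14.1 CPM and 4.81 to 10.4 CPM in those sets, and of 10 leukocyte markers it was 4.12 to 12.8 CPM and 3.11 to 4.52 CPM.

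Differences are of mean log2(normalized count + 1), low-proliferation minus comparison, so 1 unit is a doubling and low genes are understated. A total of 8728 genes (49.9%) had 3 low-proliferation values that did not overlap the 3 comparison values. Of these, 4280 (24.5% of all tested) were higher and 4448 (25.4%) lower in the low-proliferation libraries. A gene is called when the sets do not overlap and differ by at least 1 log2 unit. By this rule 1139 genes (6.51%) were called higher and 423 (2.42%) lower. After quantile normalization the counts were 873 higher and 602 lower, so the balance between the directions depends on the scaling. The called genes were mostly weakly expressed, with a median mean over the 6 libraries of 42.7 normalized counts when higher and 30.4 when lower, against 247 for all tested genes.

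The same difference can be read inside each treatment label. Control 3 minus the mean of control 1 and 2, and the mean of SKF-96365 2 and 3 minus SKF-96365 1, share no library. Across genes the Pearson r of these 2 differences was 0.57, as a description over 17492 genes that are not independent and whose sets were chosen from the same values. Both differences were at least 1 log2 unit in the same direction for 602 genes (3.44%) higher and 212 (1.21%) lower. Opposite differences of that size were seen for 29 genes that were higher in control 3 but lower in SKF-96365 2 and 3, and for 23 genes with the reverse. The median called-higher gene differed by 1.52 inside the control label and by 1.12 inside the SKF-96365 label, and the median called-lower gene by -1.35 and -1.15. The shared direction of these medians was fixed by the rule for calling, since sets that do not overlap differ the same way inside each label. Their sizes were raised by that rule too, since a called gene differs by at least 1 log2 unit between the same libraries. SKF-96365 1 lay nearer to the low-proliferation libraries than control 1 and 2 did, which several gene groups below show.

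**Figure D1:**
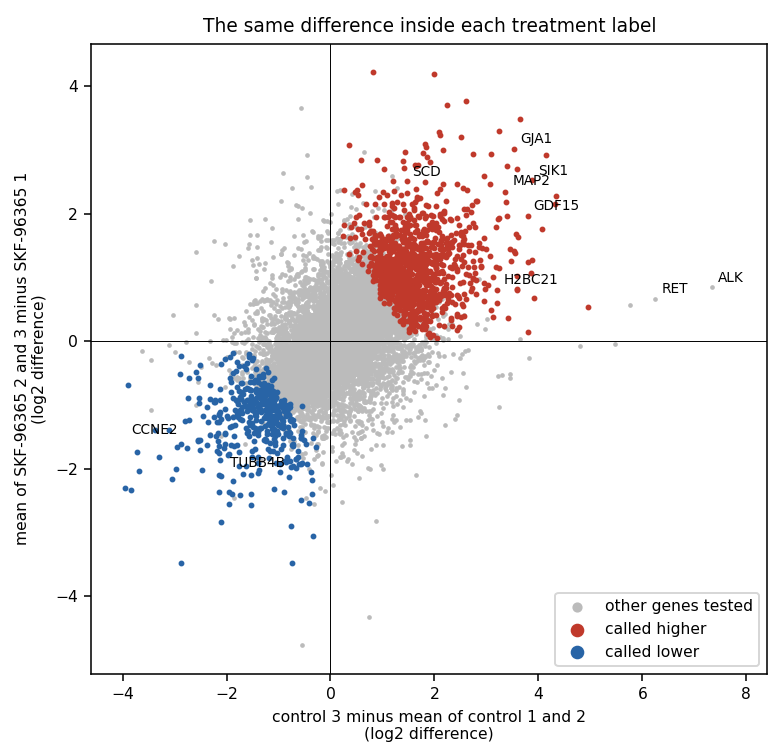
Each point is 1 of 17492 genes, with control 3 minus the mean of control 1 and 2 on the x axis and the mean of SKF-96365 2 and 3 minus SKF-96365 1 on the y axis, both in log2 units. The 1139 genes called higher (red) lie at upper right and the 423 called lower (blue) at lower left, which the rule for calling requires. ALK and RET lie far right with little change on the y axis.

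Genes for DNA synthesis and entry into S phase were lower in the low-proliferation libraries almost without exception. All 40 listed genes entered, all 40 had a negative difference, and 38 did not overlap, where 25.4% of all genes were lower in that way. The median difference was -0.74 (from -1.60 to -0.18), beside 0.00 over all genes, and 8 genes were called lower and 0 higher, where 2.42% and 6.51% of all genes were. CDC6, which loads the MCM helicase onto origins, had 615, 549 and 635 normalized counts in the low-proliferation libraries, against 2582, 1737 and 1349 in the comparison libraries. Every low-proliferation value was well under the lowest comparison value, that of SKF-96365 1, and the difference was -1.60 (SD of log2 values 0.11 and 0.47). MCM10, a helicase activator, differed by -1.50, the flap endonuclease gene FEN1 by -1.39, and UHRF1, which guides maintenance methylation, by -1.37. UHRF1 had 1285, 1246 and 1171 normalized counts in the low-proliferation libraries and 4023, 3462 and 2317 in the comparison libraries. RRM2, the cell-cycle subunit of ribonucleotide reductase and the highest gene of the list, had 4954, 4672 and 5216, against 12321, 10359 and 10719. PCNA, the sliding clamp, stayed just short of the threshold at -0.95. The 2 genes that overlapped between the sets were the primase gene PRIM1 (-0.33) and the ligase gene LIG1 (-0.18). Bulk RNA cannot tell fewer cells in S phase apart from less of each RNA per cell.

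The regulators upstream of replication held larger single differences. Of 18 E2F factors, cyclins and kinases of G1, 16 were lower without overlap, 1 was higher, and 6 were called lower, with a median of -0.65. Of all genes, 25.4% were lower and 24.5% higher without overlap, and 2.42% were called lower. CCNE2, a cyclin E gene that activates CDK2, had 42.8, 57.6 and 56.5 normalized counts in the low-proliferation libraries, against 344, 191 and 169 in the comparison libraries. Its difference of -2.09 was the largest of the list. CDC25A, the phosphatase that removes the inhibitory phosphate from CDK2, had 179, 174 and 154, against 764, 509 and 505 in the comparison libraries (-1.78). The low-proliferation values of both genes were tight and the comparison values spread, with control 1 highest. E2F8 (-1.32), E2F2 (-1.27) and E2F1 (-1.26) were called lower, while E2F7 overlapped at 0.15. CCND1, cyclin D1, had 5644, 5641 and 5750 in the low-proliferation libraries and 12841, 11090 and 12856 in the comparison libraries. RBL2, the retinoblastoma relative p130 of resting cells, was the member that went the other way, at 0.60 without overlap.

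Mitosis genes were lower as well, by smaller steps. Of 40 listed genes, 39 had a negative difference and 33 were lower without overlap, but 0 were called, with a median of -0.53 and a lowest of -0.93 (BIRC5, survivin). Among all genes 25.4% were lower without overlap and 2.42% were called lower. CDC20, the activator of the anaphase-promoting complex, had 2504, 2365 and 2387 normalized counts in the low-proliferation libraries, against 4173, 4343 and 4828 in the comparison libraries. MKI67, the proliferation antigen, had 5557, 6445 and 6276, against 9770, 12466 and 8073. TOP2A, the highest of the list, overlapped, with 11864, 12129 and 13097 in the low-proliferation libraries and 17057, 22211 and 11898 in the comparison libraries, where SKF-96365 1 was as low as the low-proliferation set. CDC25B, a phosphatase of mitotic entry, was higher without overlap at 0.50. Of 24 genes of homologous recombination and fork repair, 17 were lower without overlap and 2 were called lower. These were the fork checkpoint genes CLSPN (-1.51) and TIPIN (-1.30).

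**Figure D2:**
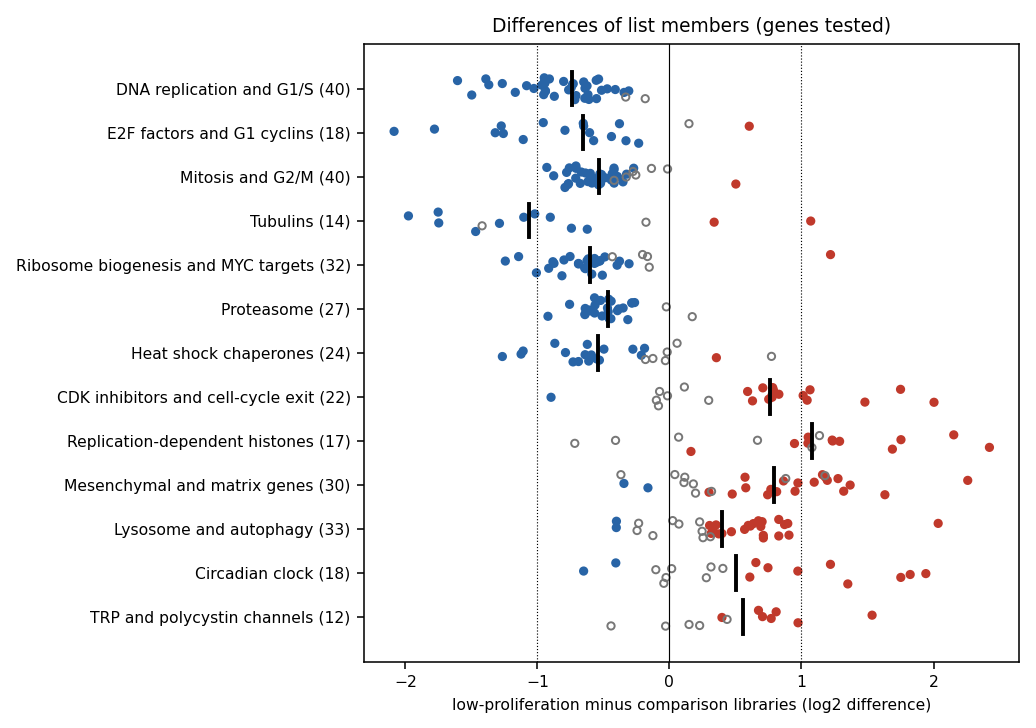
Each point is 1 tested gene of the list named at left (number of genes in brackets), placed by its log2 difference, low-proliferation minus comparison libraries. Red and blue points are genes whose sets do not overlap, open points overlap, black bars are list medians and dotted lines mark the threshold of 1. DNA replication (median -0.74), mitosis (-0.53) and the proteasome (-0.46) lie left of 0, and CDK inhibitors (0.76) and histones (1.08) lie right of it.

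Promoters of some of these genes are shown for the cell-cycle motifs that their sequence holds. The windows run from 250 bases before to 50 bases after the RefSeq start site on GRCh38.p14, were searched on both strands, and are printed 5′ to 3′ along the gene with motif matches in capitals. The motifs were E2F (TTTCCCGC, TTTGGCGC or TTTCGCGC), the cell-cycle homology region or CHR (TTTGAA) and the CCAAT box (CCAAT). Also searched were AP-1 (TGANTCA), the cyclic AMP element (TGACGTCA), the TATA box (TATAAA) and a serum response element. The serum response element was searched as a base pattern too, but its letters are not listed here. CDC6 (chr17:40287629-40287928, plus strand) holds TTTGGCGC 7 bases after its start.
CDC6: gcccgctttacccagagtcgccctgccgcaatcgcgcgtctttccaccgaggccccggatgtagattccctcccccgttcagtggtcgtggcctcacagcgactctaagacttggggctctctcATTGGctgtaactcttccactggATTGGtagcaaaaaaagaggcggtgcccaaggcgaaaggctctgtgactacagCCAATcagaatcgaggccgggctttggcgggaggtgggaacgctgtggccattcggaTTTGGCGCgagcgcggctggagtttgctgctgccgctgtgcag
CDC25A (chr3:48188368-48188667, minus strand) holds the same E2F word 44 bases before its start.
CDC25A: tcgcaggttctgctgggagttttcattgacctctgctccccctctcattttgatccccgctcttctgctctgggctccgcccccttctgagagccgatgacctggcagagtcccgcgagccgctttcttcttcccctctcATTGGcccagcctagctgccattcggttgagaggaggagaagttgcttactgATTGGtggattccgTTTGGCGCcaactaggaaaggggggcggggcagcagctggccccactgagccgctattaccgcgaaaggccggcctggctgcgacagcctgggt
UHRF1 (chr19:4909251-4909550, plus strand) holds an E2F word on the other strand 14 bases before its start.
UHRF1: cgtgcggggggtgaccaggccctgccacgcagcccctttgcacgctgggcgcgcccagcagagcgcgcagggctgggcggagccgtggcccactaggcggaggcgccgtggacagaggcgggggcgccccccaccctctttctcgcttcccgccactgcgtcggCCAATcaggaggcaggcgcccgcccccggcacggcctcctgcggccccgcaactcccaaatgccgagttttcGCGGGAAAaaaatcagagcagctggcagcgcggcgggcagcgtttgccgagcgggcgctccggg
CDC20 (chr1:43358731-43359030, plus strand) has no E2F word in the window and holds the CHR once on each strand, beside CCAAT boxes.
CDC20: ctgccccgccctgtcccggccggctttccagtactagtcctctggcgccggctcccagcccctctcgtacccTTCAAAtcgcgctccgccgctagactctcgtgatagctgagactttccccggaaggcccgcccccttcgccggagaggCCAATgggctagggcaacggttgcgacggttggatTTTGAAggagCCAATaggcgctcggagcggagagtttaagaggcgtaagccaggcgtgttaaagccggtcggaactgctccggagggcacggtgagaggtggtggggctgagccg

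The motif shares split the replication and mitosis lists. An E2F word was present in 19 of 35 replication promoters (54.3%) and in 2 of 33 mitosis promoters (6.06%), against 507 of 11400 promoters of all tested genes (4.45%). The CHR was present in 1 of 35 replication promoters (2.86%) and 22 of 33 mitosis promoters (66.7%), against 9.74% of all. Among called genes the share with an E2F word was 7.65% of 183 called lower and 2.53% of 554 called higher, and that of the CCAAT box was 46.4% and 35.4%, against 36.3% of all. TATA boxes were present in 11.5% of promoters called lower, 11.7% of those called higher and 6.02% of all. A match describes letters in this window and is not evidence of binding.

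Tubulins, the subunits of microtubules, formed the list with the lowest median (-1.06 over 14 genes). Of them 7 were called lower and 1 was called higher, where 2.42% and 6.51% of all genes were. TUBB4B had 2225, 2001 and 2004 normalized counts in the low-proliferation libraries, against 9225, 9242 and 6386 in the comparison libraries, a level 3.94-fold higher in the comparison libraries. TUBA1B had 3811, 3595 and 3749, against 14285, 14648 and 9375. TUBA1C (-1.75), TUBB6 (-1.47), TUBB (-1.29) and TUBB2A (-1.10) followed, together with TUBG1, the gamma-tubulin of centrosomes (-1.02). In each of TUBB4B, TUBA1B and TUBB, SKF-96365 1 was the lowest comparison library but stayed well above the low-proliferation libraries. The 2 exceptions were TUBE1, epsilon-tubulin (0.34, without overlap), and TUBB3, the neuronal beta-tubulin, with 163, 171 and 149 in the low-proliferation libraries and 66.3, 74.0 and 89.1 in the comparison libraries. Tubulin genes are close copies, so reads may be split among them. The TUBB4B window (chr9:137241037-137241336, plus strand) is shown for its 3 CCAAT boxes and 1 CHR.
TUBB4B: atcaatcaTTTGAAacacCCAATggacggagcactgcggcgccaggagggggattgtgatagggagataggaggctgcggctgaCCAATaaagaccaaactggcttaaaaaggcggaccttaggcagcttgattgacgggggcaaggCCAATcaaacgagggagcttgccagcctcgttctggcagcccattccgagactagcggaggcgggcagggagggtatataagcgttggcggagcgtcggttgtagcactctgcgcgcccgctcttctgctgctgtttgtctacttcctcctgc

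Cell-cycle brakes were higher, though not the whole list. Of 22 CDK inhibitors and cell-cycle exit genes, 6 were called higher and 0 lower, where 6.51% and 2.42% of all genes were. Without overlap 15 were higher, where 24.5% of all genes were, with a median of 0.76. TXNIP, a thioredoxin-binding protein that limits glucose uptake, had 1842, 1944 and 2044 normalized counts in the low-proliferation libraries, against 404, 549 and 863 in the comparison libraries. KLF9, a transcription factor of quiescent cells, had 115, 123 and 124, against 32.6, 16.2 and 47.2. FOXO1 (1.48), KLF6 (1.06), CDKN1C, which encodes p57 (1.04), and BTG1 (1.01) were also called. The highest gene of the list, CDKN1A, which encodes p21, had 8037, 7898 and 7824 in the low-proliferation libraries, against 3984, 4592 and 6236 in the comparison libraries, a difference of 0.71 that was not called. CDKN1B, p27, was at 0.75. CDKN2C, p18, which is itself an E2F-driven inhibitor, was lower without overlap at -0.90.

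The wider p53 list was mixed. Of 27 targets, 10 were higher and 5 lower without overlap, where 24.5% and 25.4% of all genes were, with a median of 0.20. Of them 3 were called higher, where 6.51% of all genes were. GDF15, a stress-secreted cytokine, had 4830, 4463 and 4444 normalized counts in the low-proliferation libraries, against 404, 298 and 1138 in the comparison libraries (8.85-fold, log2 difference 3.15). BBC3, the apoptosis gene PUMA (1.55), and GADD45A, a stress sensor (1.29), were the others called. MDM2, the feedback inhibitor of p53, overlapped, with 5092, 5255 and 5303 in the low-proliferation libraries and 4920, 5178 and 5601 in the comparison libraries, and TP53I3 was lower at -0.70 without overlap.

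**Figure D3:**
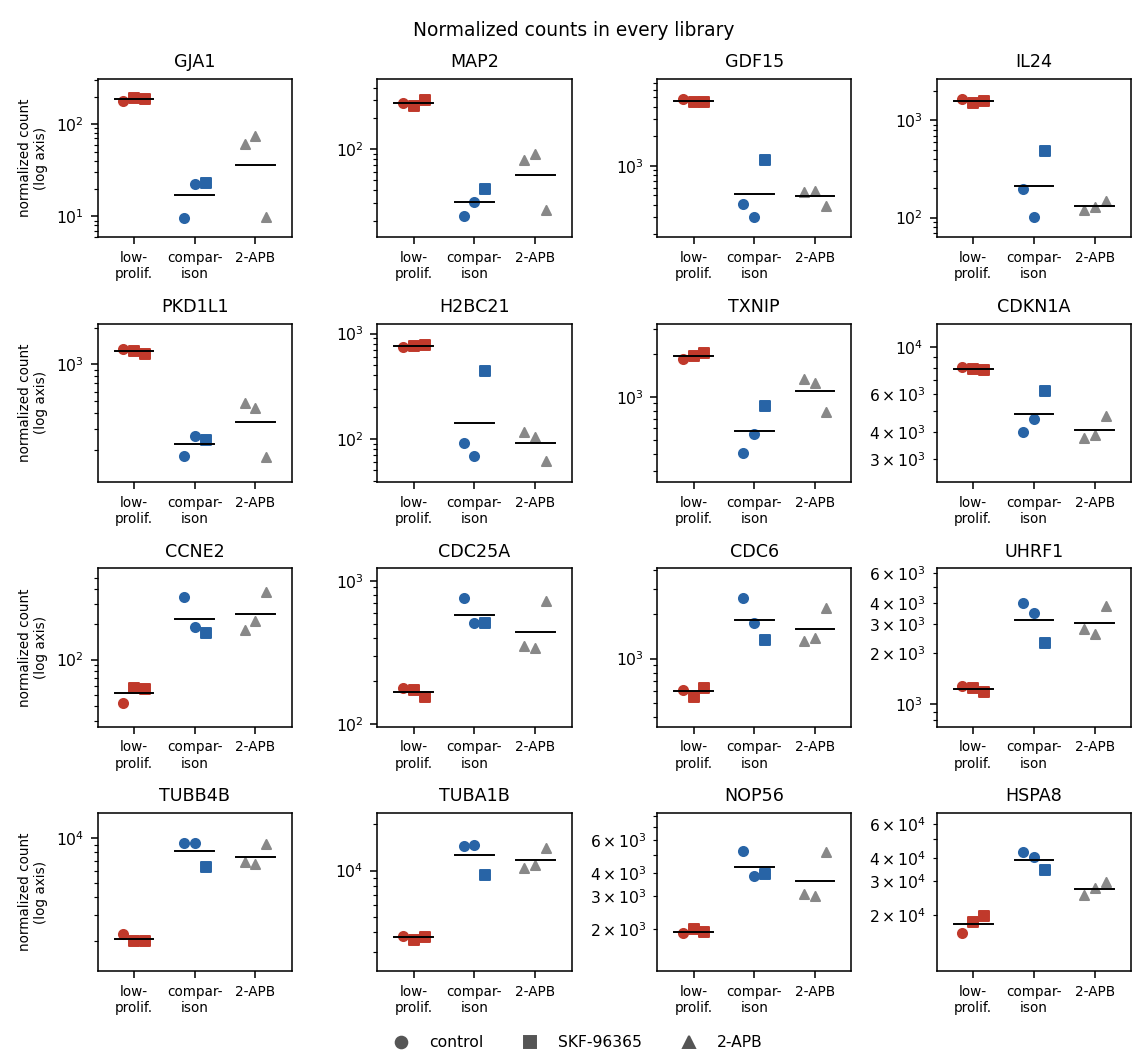
Normalized counts on log axes for 16 genes, with the low-proliferation libraries at left (red), the comparison libraries in the middle (blue) and the 2-APB libraries at right (grey). Circles are control, squares SKF-96365 and triangles 2-APB libraries, and bars mark means of log2 values; the red values lie close together and clear of the blue ones in every panel.

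Core histone genes were higher while replication genes were lower. Of 24 listed histone genes 17 entered, with a median of 1.08. Of these 9 were called higher and 0 lower, where 6.51% and 2.42% of all genes were. H2BC21 had 744, 756 and 779 normalized counts in the low-proliferation libraries, against 91.5, 69.0 and 439 in the comparison libraries (2.42). H2BC8 (2.15), H2AC6 (1.75) and H2BC4 (1.69) came next, and H2BC18 and H2BC26, outside the list, differed by 2.63 and 2.62. SKF-96365 1 stood apart from control 1 and 2 for this group. The list median was 1.51 inside the control label and 0.34 inside the SKF-96365 label. The sum of histone genes took 0.0794% to 0.0853% of the signal in the low-proliferation libraries and 0.0440% to 0.0620% in the comparison libraries. H4C3 was at -0.72 with overlap. Most replication-dependent histone mRNAs end in a stem loop without a poly(A) tail, and how the library kit selected RNA is not given in the sources used here. Histone genes are near-identical copies, so single members are uncertain. The H2BC21 window (chr1:149886633-149886932, minus strand) is shown with its TATA and CCAAT boxes, which 86.7% and 93.3% of 15 histone promoters held. The window also holds a serum response element match, in capitals, 164 bases before its start.
H2BC21: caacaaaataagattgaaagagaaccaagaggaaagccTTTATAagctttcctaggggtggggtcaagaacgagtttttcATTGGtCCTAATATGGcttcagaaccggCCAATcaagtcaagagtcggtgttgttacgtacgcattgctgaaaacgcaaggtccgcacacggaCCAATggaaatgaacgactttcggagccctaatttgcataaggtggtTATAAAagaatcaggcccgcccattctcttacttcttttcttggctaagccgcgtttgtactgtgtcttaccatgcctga

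Genes for making ribosomes were lower although MYC, which drives many of them, was higher. Of 32 listed genes, 27 were lower without overlap and 3 were called lower, where 25.4% and 2.42% of all genes were, with a median of -0.60. NOP56, a box C/D snoRNP core protein, had 1906, 2006 and 1923 normalized counts in the low-proliferation libraries, against 5207, 3845 and 3949 in the comparison libraries. RRS1 (-1.24) and URB2 (-1.01), which act in 60S assembly, were the others called. MYC, the only member called higher, had 4373, 4700 and 4693 in the low-proliferation libraries, against 2172, 1679 and 2090 in the comparison libraries (1.22). The cytosolic ribosomal protein genes had a median of -0.09 over 39 genes, and 0 were called in either direction.

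Proteasome, nuclear transport and lamina genes were mostly lower, by small steps. Of 27 proteasome genes 25 were lower without overlap, where 25.4% of all genes were, with a median of -0.46 and 0 called. Of 26 nuclear import and export genes 21 were lower without overlap (median -0.44, 0 called), and of 26 lamina and chromatin genes 20 were (median -0.51). Among these, LMNB1, lamin B1, had 2190, 2128 and 2284 normalized counts in the low-proliferation libraries, against 4059, 4134 and 3653 in the comparison libraries. Heat shock chaperones were less even, from -1.27 to 0.77. Of 24, 17 were lower without overlap, 1 was higher (HSPB1, at 0.36), and 3 were called lower, where 2.42% of all genes were. HSPA8, the constitutive HSP70, had 16049, 18383 and 19621, against 43053, 40170 and 34621. DNAJA1 (-1.27) and HSPA1A (-1.11), a near copy of HSPA1B, were the others. The endoplasmic reticulum stress list had a median of 0.05 over 22 genes and 1 called lower, the chaperone partner gene SDF2L1 (-1.13).

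**Figure D4:**
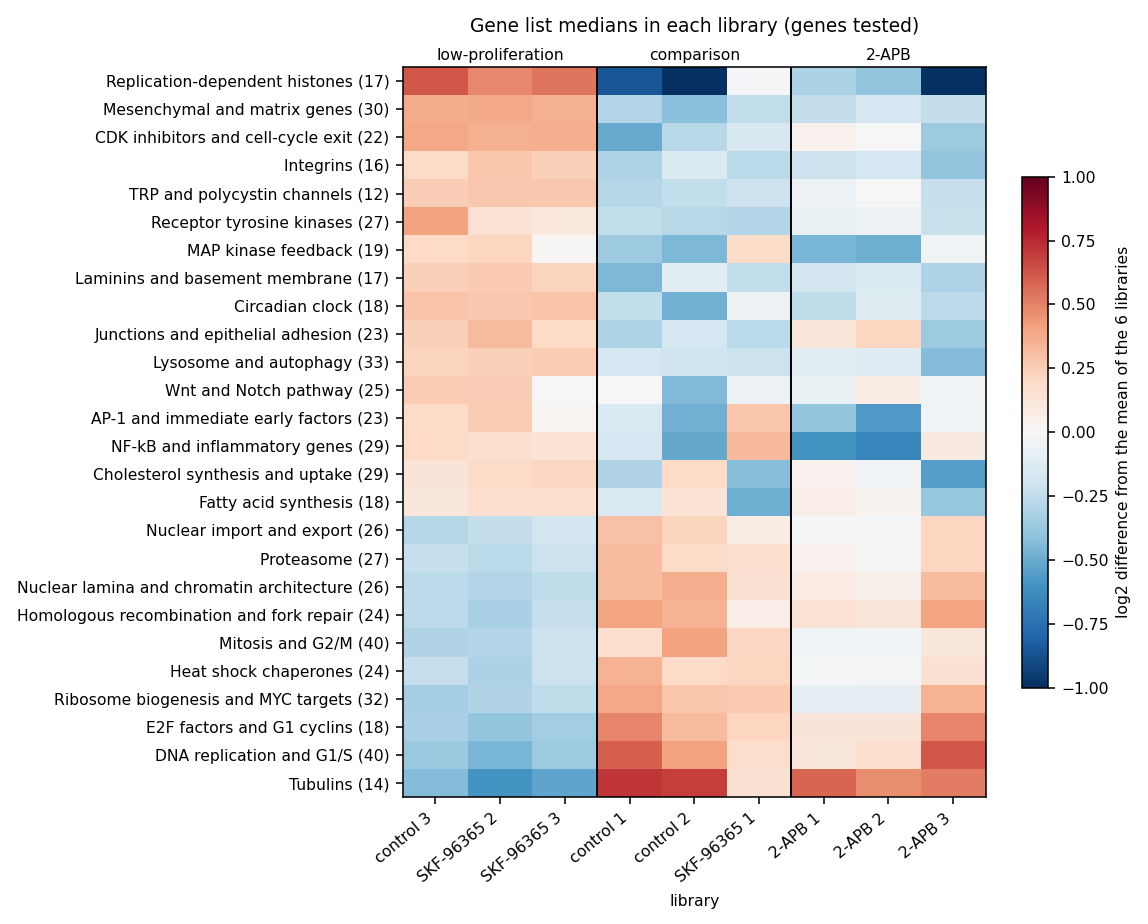
Colour gives each list's median of log2(normalized count + 1) minus each gene's mean over the 6 libraries, for lists of at least 10 tested genes (number in brackets) with a median difference of at least 0.3 in size. Columns are libraries, the low-proliferation set first, then the comparison set, then 2-APB; replication genes run from -0.45 to -0.36 in the first 3 columns and from 0.18 to 0.60 in the next 3.

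Many lysosomal genes were higher, and lipid genes were mixed. Of 33 lysosome and autophagy genes 22 were higher without overlap, with a median of 0.40 and 1 called, GPNMB, a melanosomal and lysosomal glycoprotein (585, 734 and 691 normalized counts in the low-proliferation libraries, 190, 112 and 200 in the comparison libraries). Over all genes 24.5% were higher without overlap and 6.51% were called higher, so this list held no excess of called genes. CTSB, cathepsin B, had 50676, 51477 and 53475 in the low-proliferation libraries, against 27208, 28677 and 31957 in the comparison libraries. Of 29 cholesterol genes 13 were higher without overlap, where 24.5% of all genes were, and 3 were called higher, where 6.51% of all genes were. The called genes were INSIG1 (1.47), which retains SREBP precursors, the sterol exporter ABCA1 (1.35) and the lysosomal cholesterol transporter NPC1 (1.08). Of 18 fatty acid synthesis genes 5 were higher without overlap, a share near that of all genes, and 2 were called higher. SCD, the stearoyl-CoA desaturase and one of those 2, had 17536, 19049 and 19144, against 4028, 10041 and 3356, with control 2 between the other comparison libraries and the low-proliferation set. Genes of cholesterol and fatty acid synthesis differed more inside the SKF-96365 label (medians 0.63 and 0.65) than inside the control label (0.15 and 0.06). PDK4, which diverts pyruvate from oxidation, had 118, 117 and 120 in the low-proliferation libraries and 15.8, 12.2 and 42.8 in the comparison libraries. The muscle-type and brain-type carnitine transferase genes CPT1B (1.20) and CPT1C (1.11) were called higher, the main form CPT1A was at 0.43, and the fatty acid oxidation list had a median of 0.10 over 23 genes, 9 of them negative.

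Some genes for secreted signals were among the larger differences, and immediate early factors differed by less and in both directions. IL24, a cytokine of the IL-10 family, had 1677, 1530 and 1603 normalized counts in the low-proliferation libraries, against 198, 100 and 488 in the comparison libraries (2.90). TGFB2 had 5964, 6966 and 6885, against 1529, 1865 and 1226, and INHBA, the activin A subunit, had 326, 307 and 324, against 122, 18.3 and 161. They were the 2 genes called higher of 29 in the TGF-beta and BMP list, where 1 was called lower. Of all genes 6.51% and 2.42% were. That list was mixed, with 17 positive and 12 negative differences and a median of 0.11. SIK1, a kinase gene induced by cyclic AMP and calcium, was uneven inside the low-proliferation set, with control 3 highest (729 normalized counts), SKF-96365 2 next (424) and SKF-96365 3 lowest (207), against 46.3, 50.7 and 50.7 in the comparison libraries. Of 23 AP-1 and immediate early genes 7 were higher and 3 lower without overlap, where 24.5% and 25.4% of all genes were, and the list median was 0.38 (0.51 inside the control label and -0.15 inside the SKF-96365 label). JUND (1.29), MYC (1.22), JUN (1.10) and ATF3 (1.06) were called higher, and FOS, the usual partner of JUN, was called lower at -1.26 from low counts (10.4, 24.7 and 16.9, against 29.5, 28.4 and 79.5). The 19 MAP kinase feedback genes were mixed too, with 7 higher and 5 lower without overlap and 4 called higher, where 6.51% of all genes were. Their median was 0.54 (0.78 inside the control label and -0.20 inside the SKF-96365 label). DUSP1, a phosphatase that ends MAP kinase signals, lay just outside the threshold at 1.00, while DUSP10 (1.11) and DUSP5 (1.26) were called higher. ETV4 (-0.75) and DUSP14 (-0.64) were among the 5 that were lower. Of 29 NF-kB and inflammatory genes 8 were higher and 2 lower without overlap, and 2 were called higher, a share near that of all genes. SOD2, mitochondrial superoxide dismutase and 1 of those called, had 7522, 7588 and 8388, against 2697, 2352 and 4774. CXCL8, interleukin 8, overlapped, with 998, 995 and 1012 in the low-proliferation libraries and 686, 113 and 2828 in the comparison libraries.

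Junction and adhesion genes were higher from both epithelial and mesenchymal sides. GJA1, the gap junction protein connexin 43, had 179, 194 and 187 normalized counts in the low-proliferation libraries, against 9.47, 22.3 and 22.7 in the comparison libraries (10.5-fold, log2 difference 3.39, SD 0.06 and 0.67). Of 23 junction genes 7 were called higher and 0 lower, where 6.51% and 2.42% of all genes were. Among the 7 were TJP3 (1.48), the cadherin gene CDH3 (1.46) and the desmosomal genes DSP (1.34) and JUP (1.17). CDH1, E-cadherin, was low throughout and overlapped, with 101, 27.8 and 34.7, against 17.9, 44.6 and 13.1. Of 30 mesenchymal and matrix genes 19 were higher without overlap and 9 were called higher, where 24.5% and 6.51% of all genes were, with a median of 0.79. COL3A1 had 902, 1006 and 929 in the low-proliferation libraries, against 390, 262 and 275 in the comparison libraries, and the contractile gene TAGLN had 194, 185 and 215, against 75.8, 69.0 and 83.9. VIM, vimentin, was lower without overlap at -0.34. The basement membrane genes LAMA1 (1.63) and HSPG2 (1.41) and the integrin genes ITGB3 (1.67) and ITGB4 (1.23) were called higher. The GJA1 window (chr6:121435396-121435695, plus strand) is shown because it holds an AP-1 word 48 bases before the start.
GJA1: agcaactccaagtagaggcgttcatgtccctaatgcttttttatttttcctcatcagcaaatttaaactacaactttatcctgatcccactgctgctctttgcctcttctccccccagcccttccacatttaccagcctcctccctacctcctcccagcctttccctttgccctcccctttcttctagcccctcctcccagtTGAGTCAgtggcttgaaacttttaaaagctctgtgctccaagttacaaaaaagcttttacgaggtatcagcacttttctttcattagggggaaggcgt

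An AP-1 word was present in 6.68% of promoters called higher, 4.92% of those called lower and 4.64% of all.

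MAP2, a microtubule-associated protein of neurons, was another of the largest differences, at 282, 262 and 305 normalized counts in the low-proliferation libraries and 22.1, 30.4 and 41.1 in the comparison libraries. The 15 neural and neuroendocrine markers summed to 32.4 to 36.0 CPM in the low-proliferation libraries and 10.1 to 13.03 CPM in the comparison libraries. That sum is low, 9 of the 15 were under 10 normalized counts in all libraries and 4 were at 0, and MAP2 and TUBB3 were the called members. Whether another cell type has a part in these values was not tested.

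Part of the circadian clock list was higher. Of 18 clock genes 9 were higher and 2 lower without overlap, where 24.5% and 25.4% of all genes were. Of the 18, 5 were called higher and 0 lower, where 6.51% and 2.42% of all genes were, with a median of 0.51. PER1 had 723, 742 and 747 normalized counts in the low-proliferation libraries, against 166, 199 and 271 in the comparison libraries, and DBP had 190, 135 and 150, against 49.5, 37.5 and 51.5. RORA (1.94), NR1D1 (1.35) and HLF (1.22) were also called. The core activators BMAL1 (0.02) and CLOCK (-0.10) overlapped, and PER2 (-0.65) and CRY1 (-0.41) were lower without overlap. The times at which the cultures were harvested are not given in the sources used here.

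Calcium channels, which the compounds act on, were in part higher. TRPV2 had 191, 209 and 188 normalized counts in the low-proliferation libraries, against 112, 51.7 and 169 in the comparison libraries, and 95.4, 102 and 137 in 2-APB 1, 2 and 3. Its sets did not overlap, but SKF-96365 1 came close and the difference of 0.97 was not called. Of 12 TRP and polycystin channels 7 were higher without overlap and 1 was called higher, where 24.5% and 6.51% of all genes were. TRPC4, the called gene, had 92.9, 96.6 and 115, against 33.7, 32.5 and 36.7. The 11 store-operated calcium entry genes were mixed, with 6 positive and 5 negative differences, a median of 0.08 and 2 called higher. ORAI3, a store-operated channel subunit, was called higher (103, 136 and 118, against 31.6, 53.8 and 44.5), while ORAI1 was lower without overlap at -0.32 and the sensor STIM1 overlapped at 0.30. PKD1L1, a polycystin relative named after its values were seen, had 1346, 1289 and 1219, against 180, 261 and 241. Its antisense gene PKD1L1-AS1 had 962, 1027 and 986, against 110, 139 and 166. The strand setting is not given in the sources used here, so reads of this pair cannot be told apart.

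Long noncoding RNAs took a larger share of called genes than of all genes. They made up 27.6% of genes called higher and 21.5% of those called lower, against 13.6% of all tested genes, and their median difference was 0.24 over 2382 genes, beside -0.03 over 13060 protein-coding genes. They took 3.48% to 3.74% of the signal in the low-proliferation libraries and 2.17% to 2.35% in the comparison libraries. Called genes of all types were also weaker. A mean under 50 normalized counts held for 53.9% of those called higher and 59.8% of those called lower, against 29.2% of all. Whether low counts have a part in the share of long noncoding RNAs among called genes was not tested. NEAT1, the scaffold of paraspeckles, had 96832, 96117 and 87171 normalized counts in the low-proliferation libraries, against 32599, 25983 and 34636 in the comparison libraries. MALAT1, a nuclear speckle RNA, had 290588, 267242 and 282035, against 134950, 162751 and 156181. LINC-PINT (1.84) and KCNQ1OT1 (1.31) were called higher and MIR22HG was called lower (-1.61). Protein-coding genes called lower were shorter, with a median genomic span of 17558 bases, against 31200 for those called higher and 32798 for all. The median GC content of promoters was 63.0%, 64.3% and 65.0% in those groups.

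Other called genes with large differences in both labels fall outside these groups. On the higher side were the pseudogenes CEACAMP10 (173, 209 and 214 normalized counts in the low-proliferation libraries, 17.9, 10.1 and 31.4 in the comparison libraries) and ECEL1P1 (2.76), whose reads may come from relatives. The noncoding gene AC016831.6 (3.02) and CCN5, a matricellular growth inhibitor (2.52), belong here too. On the lower side FAM111B, a protease gene of S phase, had 233, 227 and 216, against 1542, 871 and 618. ADAMTSL1, a secreted matrix protein (-2.21), CHAC2, a glutathione-degrading enzyme (-1.93), PTGS1, cyclooxygenase 1 (-1.94), NAPRT, which makes NAD from nicotinic acid (-1.79), RGS2, which damps G-protein signals (-1.68), and CCDC198 (-2.24) were also called lower.

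Genes at the edge of the rule show what it separates. Just inside on the higher side were TMC4 and RNF213-AS1, and just outside were FZD3 and DUSP1. FZD3, a Wnt receptor, had 92.9, 95.6 and 87.3 normalized counts in the low-proliferation libraries, against 62.1, 19.3 and 77.7 in the comparison libraries. On the lower side the cohesin acetyltransferase gene ESCO2 and the nuclease gene GEN1 were just inside, and HTATSF1P2 and CYREN just outside. CYREN, a regulator of end joining, had 174, 161 and 152, against 325, 334 and 316.

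With the sets held apart, little was shared between the 2 differences of SKF-96365 and control. SKF-96365 2 and 3 against control 3 passed 1 log2 unit for 528 genes, and SKF-96365 1 against control 1 and 2 for 1126. Both passed in the same direction for 15 genes higher (0.0858%) and 23 lower (0.131%), and the Pearson r across genes was -0.03, as a description. The pseudogene SPCS2P4 was one of the 23, with 62.7 and 52.6 normalized counts in SKF-96365 2 and 3, where control 3 had 152. SKF-96365 1 had 67.3 normalized counts of it, and control 1 and 2 had 259 and 170. Control 3 also carried 12 tested genes at 20 or more and over 5 times any other library, of which 2 were called. ALK, a receptor tyrosine kinase, had 1929 normalized counts in control 3 and at most 14.2 in any other library, and RET 938 and at most 15.2. ROS1 had 270 in control 3, GLI1 117 and CD22 114. Leaving out those genes gave 1137 called higher and 423 lower.

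The 2-APB libraries, which the choice of sets did not use, were placed on a line from the comparison mean (0%) to the low-proliferation mean (100%). Each place is a least-squares fit over the called genes together, so genes with large differences weigh most. Over genes called higher the places were 41.9%, 41.4% and 9.17% for 2-APB 1, 2 and 3, and over genes called lower 27.5%, 27.1% and 3.56%. Of the 1139 genes called higher, 498, 517 and 177 lay nearer to the low-proliferation mean in 2-APB 1, 2 and 3. Of the 423 called lower, 108, 90 and 37 did. GJA1 had 60.3 and 74.7 normalized counts in 2-APB 1 and 2 and 9.86 in 2-APB 3, and CDC6 had 1309, 1387 and 2227. IL24 had 121, 129 and 150, between the values of control 2 and control 1. 2-APB 3 was closest to SKF-96365 1 of all libraries, at r = 0.988, and 2-APB 1 and 2 to each other, at 0.990.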

How the data were processed

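Per the labels' protocols, total RNA was turned into libraries by means of the SMARTER mRNA-Seq kit. The deposited table holds a normalized signal, namely gene counts that the authors scaled with DESeq2, per the submitters' processing notes, which give no version. The aligner and counter used, the build with its annotation, and the strand setting are not given in the sources used here. The table has 61093 genes, of which 60605 carry Ensembl identifiers and 488 are unnamed loci. Symbols were matched for 60593, 130 of them from GENCODE 29. Values of each library were whole multiples of 1 step (100% within 0.001 of a read), which gave the read totals. Duplicate PCR reads were not marked by molecular identifiers and count more than once.

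Differences of mean log2(normalized count + 1) were computed in Python 3.11.15 with pandas 2.3.3 and numpy 2.4.6, over 17492 genes with at least 10 normalized counts in at least 3 of 9 libraries. The sets were chosen from these same values, so no count model or other test was run on them. The procedure was tested on simulated data. The sets and 52 gene lists (1261 symbols, 1106 tested) were chosen with earlier results of these data known.

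Genes were named by a rule. It takes, per list and with a mean of at least 50 over the 6 libraries, the 4 called members with the largest difference and the highest member. It adds the 12 largest differences in each direction that reach 1 log2 unit in both labels, the genes nearest the threshold, TRPV2, the 5 largest differences between labels inside both sets and the 5 highest excesses in control 3. Other named genes were picked after their values were seen, to show a group's range or an exception. Promoters are RefSeq windows. Alternatives were 2 other pseudocounts, 2 other filters, 3 rescalings, set medians, a lower threshold, each library left out, and genes high in control 3 left out. One gene that the rule names is not reported here.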

Additional observations from a re-analysis of the deposited data

Results flagged for a closer look

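Differences inside the control label (control 3 minus the mean of control 1 and 2) and inside the SKF-96365 label (the mean of SKF-96365 2 and 3 minus SKF-96365 1) went in opposite directions, library by library, for 8 results, 4 lists and 4 genes. In none of them was the difference between the labels tested. The median of 23 AP-1 and immediate early genes was 0.51 inside the control label and -0.15 inside the SKF-96365 label. The median of 29 NF-kB and inflammatory genes was 0.46 and -0.23 in the same order, and SKF-96365 1 was the highest of the 6 libraries for both lists (0.28 and 0.32 above the gene means). The median of 4 endothelial markers, of which 1 has a mean of at least 50 normalized counts, was 1.36 and -0.73. For the 22 unfolded protein response genes the medians of the differences were -0.018 and -0.023, while the library medians lay at -0.043 in control 3 and 0.032 and 0.090 in SKF-96365 2 and 3, where control 1, control 2 and SKF-96365 1 lay at -0.035, 0.027 and 0.014.

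TOP2A, the DNA topoisomerase of dividing cells, differed by -0.71 inside the control label and 0.083 inside the SKF-96365 label. THBS1, thrombospondin 1, differed by -0.85 and 0.39, with control 2 far above the others at 98109 normalized counts. The gamma-actin gene ACTG1 differed by 0.20 and -0.099, and the guanine deaminase gene GDA by 0.13 and -0.97. GDA had 98.1, 50.4 and 14.9 normalized counts in the low-proliferation libraries (control 3 first), against 97.9, 82.2 and 55.0 in the comparison libraries (SKF-96365 1 last).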

How the results depend on the processing

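No paired analysis was possible because the differences come from no test and the replicate numbers name libraries only. The counts of genes called, 1139 higher and 423 lower, became 1975 and 898 with no filter, 499 and 179 with a mean of at least 50 normalized counts, and 2391 and 1607 with a threshold of 1.5-fold. These follow from the number of genes entering (38944 and 12381, against 17492) and from the lower threshold. Leaving out each library in turn gave 1138 to 1518 higher and 436 to 613 lower, with both highest counts without SKF-96365 1, where 1469 of the 1562 called genes were still called. Pseudocounts, rescalings, set medians and leaving out genes high in control 3 kept both counts within 1.5 times. Quantile normalization gave 873 and 602, with 1256 of the 1562 shared. Rescaling moved the median of all genes by at most 0.066 log2 units. Over the 16 alternatives, 42 of 832 list medians moved beyond the spread and 12 in 6 lists changed sign, with 0 sign changes among the 27 lists whose median was at least 0.3 in size. Of 2743 values of 172 named genes, 7 moved beyond the spread, 20 changed sign and 0 called genes changed direction. With 3 libraries in each set and no independent libraries, the data cannot give an error for the division itself.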
